A study of Mus musculus with 18 samples.

Results

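The Notch pathway was followed in mouse forelimb buds through 10 genes, picked by symbol from the 55487 genes counted. They were the receptors Notch1, Notch2 and Notch3, the ligands Jag1, Jag2, Dll1 and Dll4, and the target genes Hes1, Hey1 and Hey2. RNA was sequenced in 18 libraries, 3 in each of 6 groups: Esco2fl/fl;Prrx1-CreTg/0 embryos, called mutants, and Esco2fl/fl embryos, called controls, at the embryonic day stages E9.5, E10.5 and E11.5, counted in days after mating. All 18 carried Esco2 alleles flanked by loxP sites. Esco2 encodes an acetyltransferase that helps to hold sister chromatids together. The Prrx1-Cre transgene drives recombination in limb mesenchyme and not in the ectoderm, the blood vessels or the migrating muscle precursors of the bud, and a whole bud holds all of these. The controls carried no Cre, so effects of Cre and of Esco2 loss cannot be told apart. Single buds were used per the labels, and whether replicates came from different embryos or litters is not stated there. The p-values below therefore cover only the spread seen among these 18 libraries, which may be technical.

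Notch receptors are membrane proteins that are cut when a Jagged or Delta-like ligand on a neighbouring cell binds them. The released part enters the nucleus, joins the DNA-binding protein RBPJ and a Mastermind coactivator, and switches on repressor genes of the Hes and Hey families. In the limb bud, Jag2 is known as a ligand of the apical ectodermal ridge, the strip of ectoderm that drives outgrowth, and mice without a working Jag2 have fused digits. Dll4 is known from arterial and sprouting endothelium, where it restrains neighbouring cells from sprouting, and Notch3 from pericytes, vascular smooth muscle and mesenchyme.

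Totals ran from 35034237 to 56230058 counts per library. Esco2 was at 25.0 to 28.1 CPM (counts scaled to the size of the library) in the controls of E9.5 and 15.3 to 19.8 CPM in the mutants of that stage, at 28.1 to 33.6 and 18.9 to 22.3 CPM at E10.5, and at 20.6 to 30.9 and 22.5 to 23.8 CPM at E11.5, where the groups overlapped. Control E9.5 replicate 1 stood apart: 22294 genes were detected in it, against 24125 or more in the other E9.5 libraries and 24138 or more at later stages, and its deviation from the gene means fell with exon length (Spearman correlation -0.564 over 12611 genes, against -0.268 to 0.317 in the other libraries). The receptor genes are among the long ones, so values that this library moves are also given without it, here or in the section on processing choices. Limb mesenchyme markers were abundant in every group, with a summed level over 9 genes of 1708 to 1738 CPM in E10.5 controls and 833 to 1083 CPM in E10.5 mutants. All 10 Notch pathway genes passed the filter on low counts. Hey2 and Dll1 were the least covered, with 69 to 258 and 63 to 776 counts per library, and Notch3 the most, with 3168 to 15202.

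Promoters of 8 of the 10 genes were matched in RefSeq (build GRCm38.p6, 250 bases before to 50 bases after the start), in 9 windows, and were searched on both strands for GTGGGAA, the core bound by RBPJ, for the shorter TGGGAA that it contains, for CACNAG, the N box bound by Hes proteins, and for CACGTG, an E box. Hes1 and Hey1 are named only. The Hey2 window is shown because it held GTGGGAA, and those of Jag2, Notch2 and Dll4 because these 3 genes changed in mutants. Capitals mark GTGGGAA and CACNAG on either strand, and each sequence runs 5′ to 3′ along the gene.
Hey2 (chr10:30842734-30843033, minus strand): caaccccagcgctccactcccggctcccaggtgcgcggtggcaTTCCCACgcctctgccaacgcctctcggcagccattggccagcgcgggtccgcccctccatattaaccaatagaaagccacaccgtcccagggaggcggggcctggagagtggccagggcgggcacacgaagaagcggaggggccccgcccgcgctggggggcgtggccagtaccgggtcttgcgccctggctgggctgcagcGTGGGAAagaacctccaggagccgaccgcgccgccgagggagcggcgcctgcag
Jag2 (chr12:112929446-112929745, minus strand): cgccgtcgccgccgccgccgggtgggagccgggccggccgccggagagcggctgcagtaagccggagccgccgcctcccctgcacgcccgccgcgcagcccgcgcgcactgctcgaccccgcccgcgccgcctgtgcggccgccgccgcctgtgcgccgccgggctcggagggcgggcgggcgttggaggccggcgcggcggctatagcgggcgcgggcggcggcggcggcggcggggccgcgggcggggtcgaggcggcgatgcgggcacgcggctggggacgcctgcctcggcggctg
Notch2 (chr3:98013288-98013587, plus strand): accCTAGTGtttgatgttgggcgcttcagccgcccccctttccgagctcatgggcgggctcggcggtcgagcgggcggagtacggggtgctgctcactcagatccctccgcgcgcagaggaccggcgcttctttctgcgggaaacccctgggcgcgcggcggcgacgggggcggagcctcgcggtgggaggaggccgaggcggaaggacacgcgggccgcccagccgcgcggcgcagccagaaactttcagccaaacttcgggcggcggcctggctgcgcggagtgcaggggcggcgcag
Dll4 (chr2:119325534-119325833, plus strand): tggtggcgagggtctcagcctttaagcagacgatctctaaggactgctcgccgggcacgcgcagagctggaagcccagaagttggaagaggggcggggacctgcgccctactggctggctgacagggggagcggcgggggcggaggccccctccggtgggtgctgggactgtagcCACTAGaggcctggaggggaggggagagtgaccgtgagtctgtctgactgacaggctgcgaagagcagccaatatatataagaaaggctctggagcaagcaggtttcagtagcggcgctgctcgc
The Hey2 promoter held 2 copies of GTGGGAA, one 207 bases before the start on the opposite strand and one 4 bases before it on the gene's strand. Of 32851 mouse promoters of the same length, 6.38% held at least 1 copy and 0.256% at least 2. No other of the 9 windows held it, and the shorter TGGGAA, present in 25.6% of all promoters, was found only within these copies. CACNAG stood in 1 window each of Notch1, Notch2, Notch3, Dll1 and Dll4, against 42.5% of all promoters, and CACGTG in none of the 9 windows, against 7.15%. The Jag2 window held no searched motif.

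**Figure D1:**
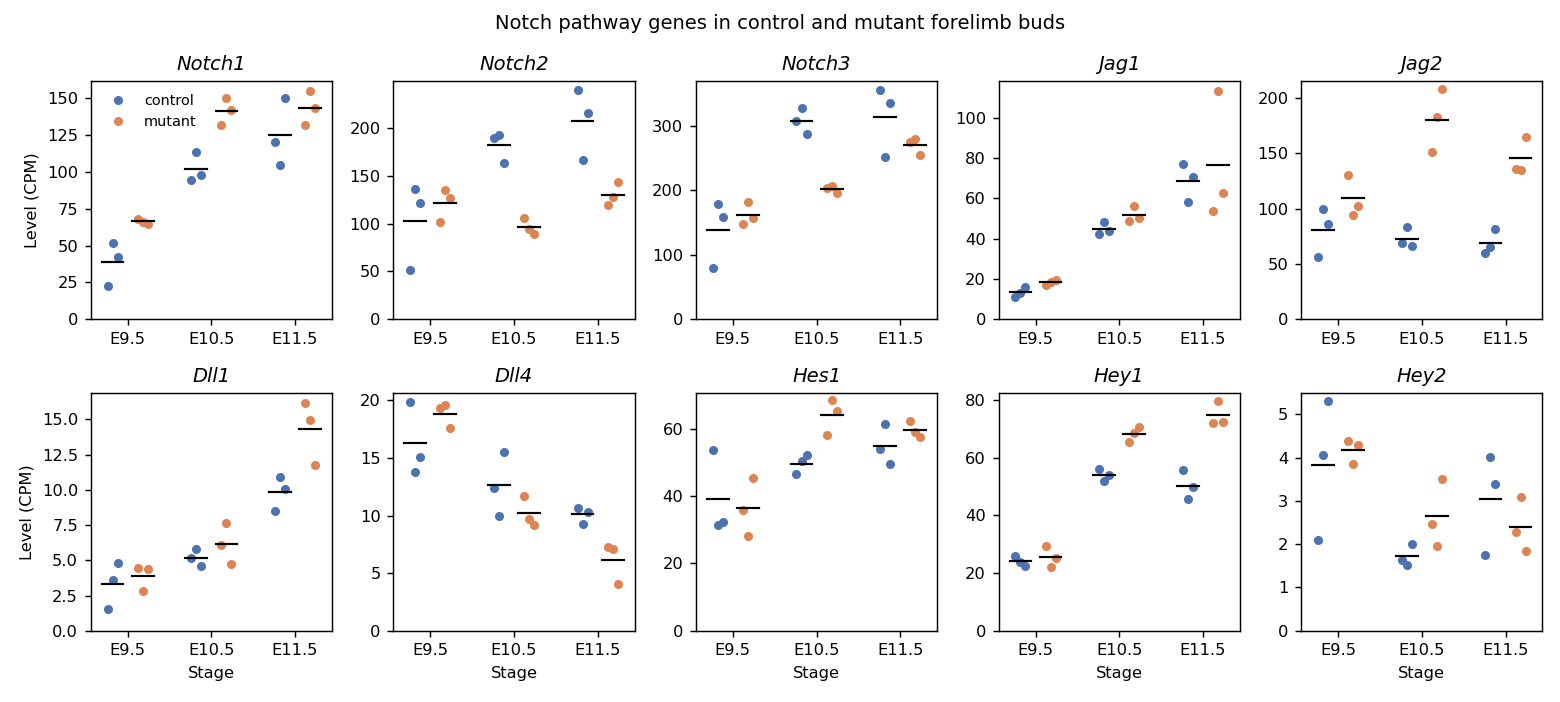
Level of each gene in CPM (vertical axis, from 0) by stage (horizontal axis), with 1 point per library, controls in blue, mutants in orange, and a bar at each group's mean of 3 libraries. Jag2 and Hey1 separate the genotypes at E10.5 and E11.5, Notch2 is lower in mutants at both stages, and Dll4 is lower in mutants at E11.5.

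Levels differed widely between the 10 genes. In E10.5 controls, on a scale of CPM per kb of exon, Notch3 stood highest at 38.1 ± 2.53 (SD, n = 3, as in all later ± SD values), followed by Hes1 at 24.4 ± 1.42, Notch2 at 16.9 ± 1.51 and Hey1 at 16.5 ± 0.687. Jag2 was at 10.4 ± 1.30, Jag1 at 7.67 ± 0.518, Notch1 at 7.18 ± 0.714 and Dll4 at 3.28 ± 0.717 CPM per kb, while Dll1 at 1.23 ± 0.142 and Hey2 at 0.376 ± 0.0552 were the lowest. Among the 10 genes, Notch3 was thus the highest receptor transcript of the controls at this stage by length-scaled level, and Jag2 the highest ligand transcript. In E11.5 controls Jag1 (44.2 ± 4.89% of the ligand sum) had a higher share than Jag2 (37.1 ± 4.39%).

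The genotypes were compared within each stage to ask which of these genes responded to Esco2 deletion in the mesenchyme. At E9.5, the quasi-likelihood test of edgeR, adjusted by Benjamini-Hochberg over 20118 genes with a threshold of 0.05, called 0 of the 10 genes, against 0.184% of all genes. Unadjusted, Notch1, Jag1 and Jag2 had a p under 0.05 (3 genes), against 1996 of the 20118 genes. DESeq2 called 1 gene, Notch1, against 131 of the 20118. At E10.5 edgeR called 3 (Jag2 and Hey1 higher, Notch2 lower), against 13.9% of all genes (7.3% higher and 6.63% lower). At E11.5 it also called 3 (Jag2 and Hey1 higher, Dll4 lower), against 17.5% (8.02% higher and 9.52% lower). The median log2 change of the 10 genes was 0.22, 0.29 and 0.14 at the 3 stages, and that of all genes -0.01, 0.02 and 0.01. The E10.5 count depended on the fit, from 1 to 7. When the E10.5 libraries were fitted alone it was 7, with Notch1, Notch3, Hes1 and Jag1 added, while the share over all genes rose to 34.6%. Leaving out control E9.5 replicate 1 gave 6, with 25.7% of all genes called.

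**Figure D2:**
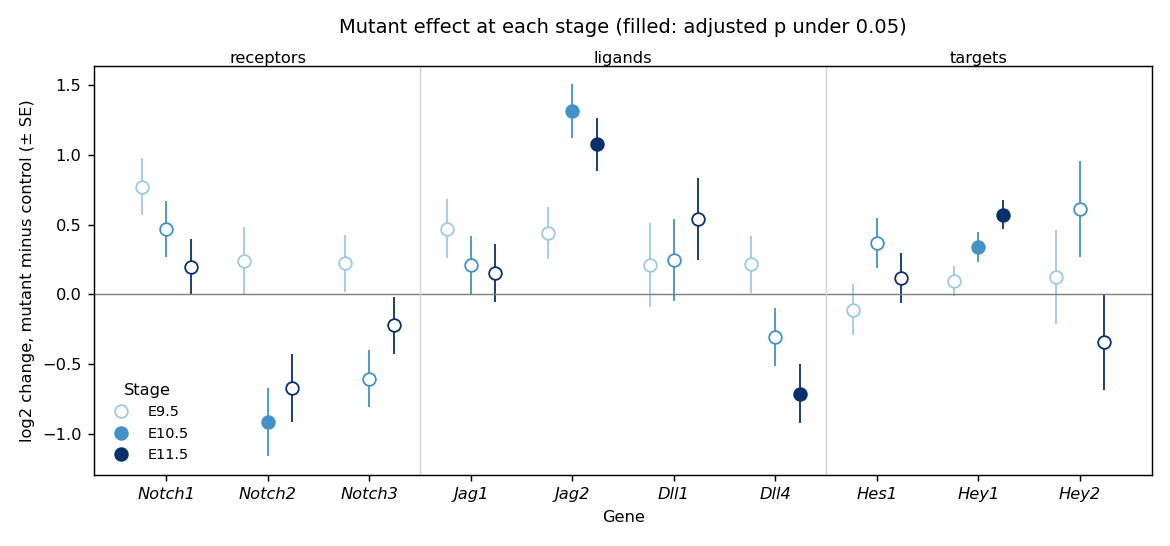
Log2 change of mutant minus control (vertical axis, ± SE of the fit) for the 10 genes (horizontal axis, grouped as receptors, ligands and targets) at each stage, with filled points where the adjusted p was under 0.05. Jag2 has the largest rises, at 1.31 and 1.07, and Notch2 at E10.5 the largest fall, at -0.91.

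Among the receptors, Notch2 fell in E10.5 mutants. Notch2 (ENSMUSG00000027878.11, mm10 chr3:98013527-98150361, plus strand) encodes a broadly expressed receptor, and an exon of the predicted gene Gm42820 overlaps it on the same strand, so reads shared by both were not counted. At E10.5 it was at 190.3, 193.2 and 163.7 CPM in controls and at 106.1, 95.0 and 89.3 CPM in mutants, with no overlap. The log2 change was -0.91 ± 0.24 (SE), 0.531-fold, with an adjusted p of 0.0185 by edgeR's quasi-likelihood test. At E11.5 it was at 240.2, 166.3 and 216.0 CPM in controls and at 119.8, 128.1 and 143.8 CPM in mutants, again without overlap, but the log2 change of -0.67 ± 0.24 missed the threshold in edgeR (adjusted p = 0.0670). Leaving out control replicate 1 or 2, or mutant replicate 2 or 3, ended the call at E10.5, as did a fit with no filter on low counts and a fit with only the 4 libraries of that stage whose names start with 41, with edgeR adjusted p-values of up to 0.120, and the log2 change stayed between -0.99 and -0.71 over 17 alternatives. The E11.5 value passed in DESeq2 (adjusted p = 0.0399) and in edgeR without control E9.5 replicate 1 (0.00126).

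Limb mesenchyme markers were lower in the same libraries. Of 9 mesenchyme markers, 4 fell and 0 rose at E10.5, and 5 fell and 0 rose at E11.5. Prrx1, a homeobox gene of limb mesenchyme, went from 537 ± 11.99 to 205 ± 68.5 CPM at E10.5, and Tbx5, which marks the forelimb, from 160 ± 10.3 to 59.8 ± 7.84 CPM. As a share of the summed mesenchyme markers, Notch2 was 9.47 to 11.1% in E10.5 controls and 9.79 to 10.7% in E10.5 mutants, so the ranges overlapped. At E11.5 the shares were 8.59 to 12.3% and 12.2 to 15.9%. In whole buds, fewer cells of a type and less RNA per cell cannot be told apart, and the part that tissue makeup plays in the Notch2 change was not tested.

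Notch3 (ENSMUSG00000038146.8, mm10 chr17:32120820-32166852, minus strand) had a lower mean in E10.5 mutants without passing the threshold. It was at 308.5, 328.3 and 287.3 CPM in E10.5 controls and at 204.1, 207.6 and 196.6 CPM in E10.5 mutants. The groups did not overlap, and the log2 change was -0.60 ± 0.20 with an adjusted p of 0.0599 in edgeR's quasi-likelihood test, 0.0332 in DESeq2 and 0.000597 in edgeR without control E9.5 replicate 1. At E11.5 the ranges overlapped, at 251.9 to 356.1 CPM in controls and 255.6 to 280.5 CPM in mutants, and the log2 change was -0.22 ± 0.20 (adjusted p = 0.504, edgeR). The summed level of 11 markers of pericytes and smooth muscle was 238 to 269 CPM in E10.5 controls and 155 to 170 CPM in E10.5 mutants, and Notch3 relative to that sum was 107 to 138% and 122 to 127%, with overlapping ranges. Of these 11 markers, Pdgfrb, a receptor of pericytes and mesenchyme, fell by 0.89 ± 0.13 on the log2 scale at E10.5, Anpep and Cspg4 also fell, and Rgs5, another pericyte gene, rose by 1.30 ± 0.27. The median log2 change of the 11 was 0.56, opposite in sign to their sum, most of which was Pdgfrb (189.6 ± 9.77 CPM in E10.5 controls).

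Notch1 (ENSMUSG00000026923.15, mm10 chr2:26457903-26516663, minus strand), a receptor of many tissues that include the ridge and endothelium, had a higher mean in mutants at all 3 stages without passing the threshold in the fit of all libraries. It was at 94.6, 113.7 and 98.1 CPM in E10.5 controls and at 131.9, 150.0 and 141.9 CPM in E10.5 mutants, with no overlap. The log2 change was 0.47 ± 0.20 with an adjusted p of 0.136 in edgeR, and 0.00620 without control E9.5 replicate 1. At E9.5 the controls had 22.5, 51.7 and 42.3 CPM of it and the mutants 68.0, 66.3 and 64.8 CPM. Every E9.5 mutant library stood above every E9.5 control, control replicate 1 was the lowest, and the log2 change was 0.77 ± 0.20 with an adjusted p of 0.250 in edgeR and 0.0417 in DESeq2; without control replicate 1 it was 0.50 (adjusted p = 0.260, edgeR). At E11.5 the ranges overlapped, at 104.9 to 150.0 CPM in controls and 132.0 to 155.2 CPM in mutants, and the log2 change was 0.20 ± 0.20 (adjusted p = 0.542, edgeR).

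All 3 receptors are long, at 8.09 to 14.23 kb of exon, and libraries differed in how counts varied with length: the Spearman correlation of deviation with exon length was 0.154 to 0.317 in the E10.5 controls and -0.268 to -0.173 in the E10.5 mutants. With each library's length trend removed, a fit chosen after the data were seen, the E10.5 log2 changes in edgeR were 0.73 for Notch1 (adjusted p = 0.000211), -0.71 for Notch2 (0.00156) and -0.46 for Notch3 (0.0164). The signs were kept and all 3 passed the threshold.

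**Figure D3:**
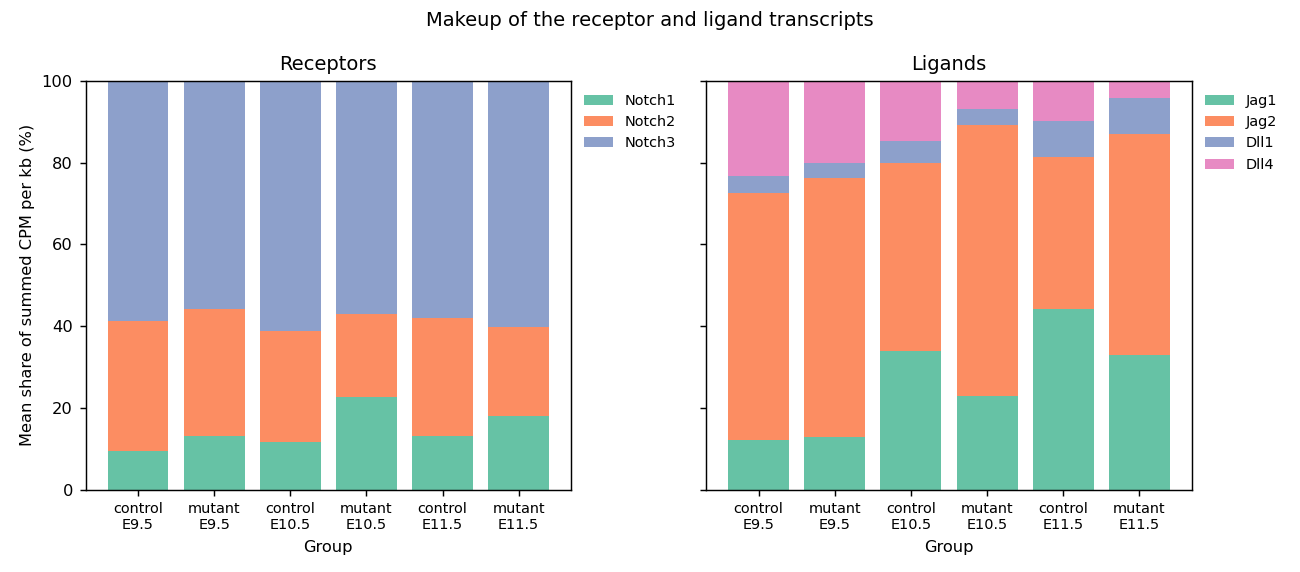
Mean share of each receptor (left) and each ligand (right) in the summed CPM per kb of its class (vertical axis, percent), by group (horizontal axis). From control to mutant at E10.5 the Notch1 share went from 11.55% to 22.6% and the Jag2 share from 46.0% to 66.3%.

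Set side by side per kb of exon, the 3 receptors differed in makeup between the genotypes, which was not tested. Notch4, a receptor outside the 10 genes, is not in the receptor sum. It was at 27.6 ± 3.59 CPM in E9.5 controls. Notch1 made up 11.55 ± 0.777% of the receptor sum in E10.5 controls and 22.6 ± 1.45% in E10.5 mutants, and Notch2 27.2 ± 0.979% and 20.4 ± 1.54%. Notch3 held 61.3 ± 0.357% and 57.0 ± 0.101%. The sum itself was 62.2 ± 4.46 CPM per kb in controls and 44.0 ± 1.27 in mutants, and none of these 4 ranges overlapped between the genotypes at E10.5. At E11.5 the Notch1 share was 13.2 ± 1.69% in controls and 18.1 ± 0.973% in mutants, and the Notch2 share 28.7 ± 1.02% and 21.8 ± 2.13%, again without overlap. The Notch3 share at E11.5 was 58.1 ± 0.692% in controls and 60.1 ± 2.55% in mutants, and the receptor sum 67.0 ± 11.3 and 55.6 ± 1.63 CPM per kb, and both overlapped.

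Among the ligands, Jag2 rose in mutants at E10.5 and E11.5. Jag2 (ENSMUSG00000002799.6, mm10 chr12:112907819-112929776, minus strand) was at 69.0, 83.0 and 65.9 CPM in E10.5 controls and at 150.7, 182.6 and 207.7 CPM in E10.5 mutants. At E11.5 it was at 59.8, 65.6 and 81.8 CPM in controls and at 135.9, 135.2 and 165.0 CPM in mutants. At both stages every mutant library stood above every control library. The log2 changes were 1.31 ± 0.19, 2.48-fold, with an adjusted p of 0.000230, and 1.07 ± 0.19, 2.10-fold, with an adjusted p of 0.000999 (edgeR's quasi-likelihood test). They passed the threshold in 17 of 17 alternatives at E10.5 and in 16 of 16 at E11.5. At E9.5 the ranges overlapped, at 56.0, 99.4 and 86.0 CPM in controls and 130.7, 94.6 and 102.4 CPM in mutants, with a log2 change of 0.44 ± 0.19 (adjusted p = 0.497, edgeR) that was 0.24 without control replicate 1.

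Surface ectoderm and ridge markers were also higher in these libraries. Of 17 surface ectoderm markers, 16 rose and 0 fell at E10.5, with a median log2 change of 1.09, and 13 rose and 0 fell at E11.5, with a median of 0.90. Their summed level was 432 to 640 CPM in E10.5 controls and 878 to 1305 CPM in E10.5 mutants, and 434 to 723 and 848 to 1122 CPM at E11.5. Of 13 ridge markers, 9 at E10.5 and 7 at E11.5 were higher past the threshold, and 0 were lower. Their median log2 changes were 1.5 and 1.14, beside 1.31 and 1.07 for Jag2. The ridge sum was 151 to 196 CPM in E10.5 controls and 415 to 539 CPM in E10.5 mutants. At E11.5 it was 131 to 144 and 248 to 443 CPM. Jag2 was set against the surface ectoderm sum only, not against the ridge sum. The ridge medians were above the log2 changes of Jag2 at both stages. The direction of the ratio below therefore holds for the surface ectoderm list and is not shown for the ridge. Jag2 relative to the surface ectoderm sum was 12.96 to 15.4% in E10.5 controls and 15.9 to 17.2% in E10.5 mutants, and 11.3 to 13.8% and 14.6 to 15.9% at E11.5. The ranges of this ratio did not overlap between genotypes at either stage, and its mean went from 14.5 ± 1.36% to 16.5 ± 0.631% at E10.5, against the 2.48-fold rise of Jag2 itself. The part of the ectoderm's share of the bud in the Jag2 rise was not tested. Blood markers were higher too: 9 of 11 erythroid markers rose at E10.5, with sums of 2990 to 6184 CPM in controls and 6394 to 20062 CPM in mutants, and 7 of 14 macrophage markers, with sums of 28.6 to 38.9 and 54.5 to 92.4 CPM. Of 15 chondrogenic genes tested, 8 fell and 2 rose.

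**Figure D4:**
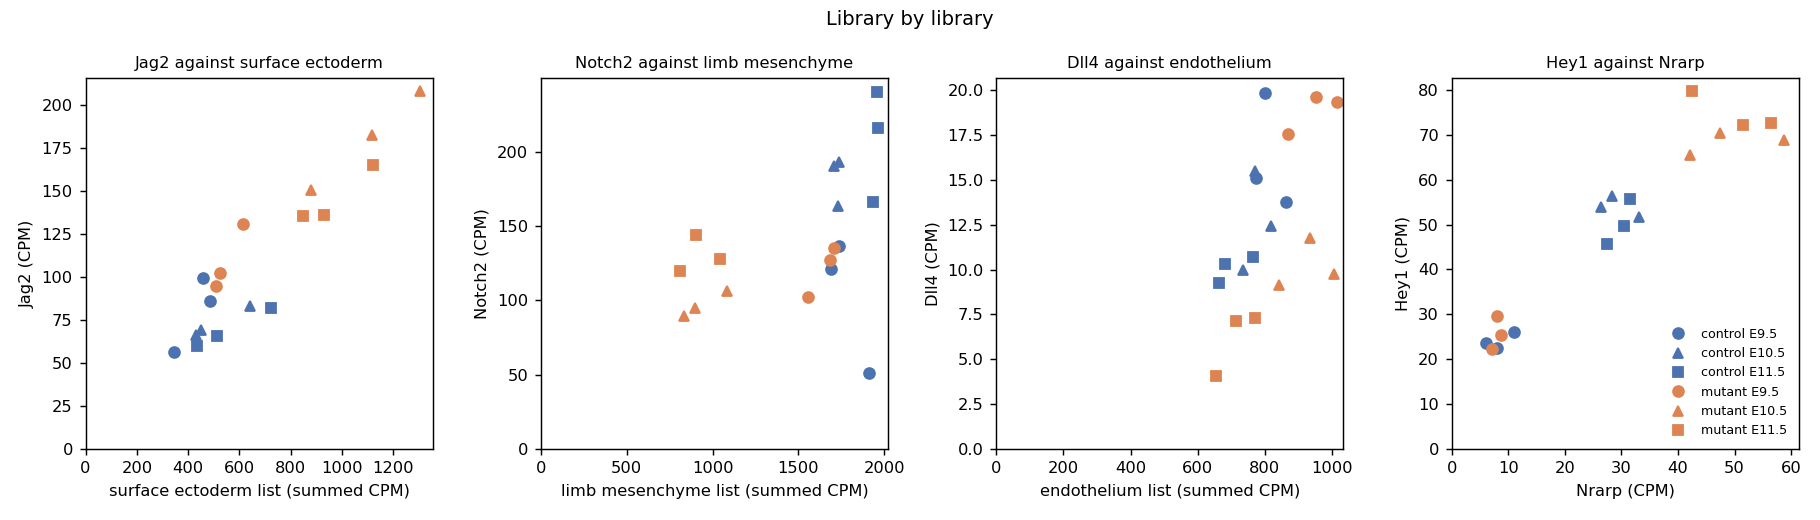
Library by library, in CPM on both axes: Jag2 against the summed surface ectoderm markers, Notch2 against the summed limb mesenchyme markers, Dll4 against the summed endothelium markers and Hey1 against Nrarp, with genotype by colour and stage by symbol. E10.5 mutants have Jag2 at 150.7 to 207.7 CPM together with ectoderm sums of 878 to 1305 CPM, while E11.5 mutants have the lowest Dll4 (4.06 to 7.31 CPM) at endothelium sums of 655 to 771 CPM.

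Dll4 fell in E11.5 mutants. Dll4 (ENSMUSG00000027314.6, mm10 chr2:119325784-119335962, plus strand) was at 10.7, 9.28 and 10.3 CPM in E11.5 controls and at 7.31, 7.13 and 4.06 CPM in E11.5 mutants. Mutant replicate 3 was the lowest of all 18 libraries, and the groups did not overlap. The log2 change was -0.71 ± 0.21, 0.611-fold, with an adjusted p of 0.0268 by edgeR's quasi-likelihood test. The call was lost without mutant replicate 3 (adjusted p = 0.132), control replicate 1 (0.0749) or control replicate 3 (0.0759) of that stage in edgeR, and the log2 change ran from -0.85 to -0.48 over 16 alternatives. At E10.5 the ranges overlapped, at 9.97 to 15.5 CPM in controls and 9.17 to 11.7 CPM in mutants, with a log2 change of -0.31 ± 0.21 (adjusted p = 0.359, edgeR).

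Endothelial markers as a whole were not lower at E11.5. Their summed level over 23 genes was 663 to 766 CPM in E11.5 controls and 655 to 771 CPM in E11.5 mutants, with 3 genes up and 2 down, and 736 to 817 and 843 to 1007 CPM at E10.5, with 7 up and 1 down. Pecam1, Cdh5 and Kdr, which define endothelium, had log2 changes of -0.16, -0.08 and -0.15 at E11.5, none past the threshold. Dll4 relative to the endothelium sum was 1.39 to 1.52% in E11.5 controls and 0.620 to 1.00% in E11.5 mutants, and 1.35 to 2.01% and 0.968 to 1.26% at E10.5, without overlap at either stage. At E10.5 the endothelium sum was itself higher in mutants and the CPM of Dll4 overlapped, so the gap in the ratio rests in part on this list. The sum of 11 arterial and tip-cell genes was 434 to 472 CPM in E10.5 controls and 417 to 429 CPM in E10.5 mutants. At E11.5 it was 408 to 471 and 407 to 446 CPM, and Dll4 was not set against this sum. Of 11 arterial and tip-cell genes, 3 fell at E11.5, namely Esm1, a tip-cell gene (-1.40 ± 0.45), and Gja5 (-1.56 ± 0.39) and Gja4 (-0.82 ± 0.25), connexins of arteries, while Sox17 was at -0.12 ± 0.23. Another 2 rose, namely Angpt2, an angiopoietin made by activated endothelium (2.25 ± 0.30), and Cxcr4, a chemokine receptor (1.28 ± 0.35). Gja4, Angpt2 and Cxcr4 were named after their values were seen.

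Jag1 and Dll1 did not pass the threshold at any stage in the fit of all libraries. Jag1 passed at E10.5 with that stage fitted alone (adjusted p = 0.0477, edgeR). Dll1 passed at E11.5 with that stage fitted alone (0.0382) and without both control E9.5 replicate 1 and mutant E10.5 replicate 3 (0.0385, both edgeR). Jag1 (ENSMUSG00000027276.7, mm10 chr2:137081456-137116644, minus strand) had levels of 10.8, 13.01 and 16.0 CPM in the controls of E9.5 and 17.2, 18.6 and 19.5 CPM in its mutants, without overlap, and at 42.3, 48.1 and 43.6 against 49.0, 56.0 and 50.2 CPM at E10.5, also without overlap. At E11.5 mutant replicate 2 stood at 113.3 CPM while the other two were at 53.6 and 62.5, against 58.2 to 77.3 in controls, and the log2 change of 0.15 ± 0.21 turned to -0.24 without that library. Dll1 (ENSMUSG00000014773.13, mm10 chr17:15367354-15376872, minus strand), known from somites and muscle precursors, was at 8.50, 10.9 and 10.1 CPM in E11.5 controls and at 16.2, 14.95 and 11.8 CPM in E11.5 mutants. The E11.5 groups did not overlap, and the log2 change was 0.54 ± 0.29 (adjusted p = 0.226, edgeR). Of 9 muscle precursor markers, 3 rose at E11.5, with sums of 250 to 319 CPM in controls and 403 to 570 CPM in mutants, and Dll1 relative to that sum was 3.16 to 3.55% and 2.83 to 3.04%.

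Jag2 made up more of the ligand sum in mutants, a share that was not tested. Per kb of exon, Jag2 was 46.0 ± 3.24% of the ligand sum in E10.5 controls and 66.3 ± 4.33% in E10.5 mutants, and Dll4 14.6 ± 3.75% and 6.93 ± 1.67%. Jag1 was 33.9 ± 0.303% and 22.9 ± 2.09%, although its own level was not lower. The ligand sum was 22.6 ± 1.34 CPM per kb in E10.5 controls and 38.9 ± 3.87 in E10.5 mutants, opposite in direction to the receptor sum. At E11.5 the Jag2 share was 37.1 ± 4.39% and 54.1 ± 9.28%, and the Dll4 share 9.85 ± 0.566% and 4.15 ± 1.38%.

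Among the targets, Hey1 rose at both later stages. Hey1 (ENSMUSG00000040289.8, mm10 chr3:8663359-8667256, minus strand), a transcriptional repressor, was at 56.3, 51.8 and 54.0 CPM in E10.5 controls and at 65.6, 68.8 and 70.5 CPM in E10.5 mutants. At E11.5 it was at 55.7, 45.7 and 49.7 CPM in controls and at 72.2, 79.7 and 72.5 CPM in mutants. Neither stage showed overlap, and the spread within each group was at most 5.04 CPM (SD). The log2 changes were 0.34 ± 0.11, 1.26-fold, with an adjusted p of 0.0423, and 0.57 ± 0.11, 1.49-fold, with an adjusted p of 0.00140 (edgeR's quasi-likelihood test). The E11.5 rise passed in 16 of 16 alternatives. The E10.5 rise passed in 9 of 17 and was lost without each of the 6 E10.5 libraries in turn, with adjusted p-values of up to 0.147 in edgeR, while the log2 change kept between 0.30 and 0.37. At E9.5 the groups overlapped, at 22.5 to 26.0 CPM in controls and 22.2 to 29.6 CPM in mutants.

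Hes1 and Hey2 were not called. Hes1 (ENSMUSG00000022528.8, mm10 chr16:30064384-30067796, plus strand), a repressor that also answers to signals other than Notch, was at 46.4, 50.4 and 52.1 CPM in E10.5 controls and at 58.2, 68.7 and 65.3 CPM in E10.5 mutants, without overlap. Its log2 change was 0.37 ± 0.18 with an adjusted p of 0.198 in edgeR, and 0.0378 without control E9.5 replicate 1; at E11.5 it was 0.12 ± 0.18 (adjusted p = 0.704, edgeR) and the groups overlapped. Hey2 (ENSMUSG00000019789.9, mm10 chr10:30832359-30842801, minus strand), a repressor known from arteries and heart and the only one of the 8 genes searched with GTGGGAA in its promoter, as shown above, was between 1.53 and 4.01 CPM in all E10.5 and E11.5 libraries. Its groups overlapped at every stage, and its log2 changes were 0.12 ± 0.34, 0.61 ± 0.34 and -0.34 ± 0.34 from E9.5 to E11.5.

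Counting only whether the 3 mutant and 3 control libraries overlapped, 2 genes stood higher without overlap at E9.5 (Notch1 and Jag1), against 8.87% of all genes in either direction. At E10.5, 5 stood higher (Notch1, Jag1, Jag2, Hes1 and Hey1) and 2 lower (Notch2 and Notch3), against 46.1% of all genes (23.0% higher and 23.1% lower). At E11.5, 3 stood higher (Jag2, Dll1 and Hey1) and 2 lower (Notch2 and Dll4), against 40.5% (19.8% higher and 20.7% lower). The groups of Jag2, Hey1 and Notch2 stood apart in the same direction at both E10.5 and E11.5. The share of all genes that did so at both stages was not computed, so these genes are named as a description only.

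A list of 45 other Notch pathway genes was examined alongside, of which 44 were tested. By edgeR, 0 of them were called at E9.5, and DESeq2 also called 0. Unadjusted, 3 had a p under 0.05 at that stage, against 1996 of 20118 genes. In edgeR 2 rose and 4 fell at E10.5, and 2 rose and 9 fell at E11.5. The median log2 changes at the 3 stages were 0.06, -0.10 and -0.17. Over all genes the shares called were 13.9% at E10.5 (7.3% higher and 6.63% lower) and 17.5% at E11.5 (8.02% higher and 9.52% lower). The E10.5 count depended on the fit. With the E10.5 libraries fitted alone, 7 rose and 13 fell, against 34.6% of all genes called, and without control E9.5 replicate 1, 3 rose and 9 fell, against 25.7%. Without control replicate 3 or mutant replicate 3 of E10.5, 2 rose and 0 fell, against 8.16% and 7.10% of all genes called. Unadjusted, 13 and 10 had a p under 0.05 in these fits, against 4910 of 20821 and 4393 of 20735 genes. With the length trend removed, 3 rose and 1 fell, against 16.0%. With the 4 E10.5 libraries whose names start with 41 alone, 0 were called, against 4.24%. In that fit 8 had an unadjusted p under 0.05, against 3752 of 20676 genes. All of these are edgeR fits. DESeq2 on all libraries called 3 higher and 5 lower, against 1941 higher and 1711 lower over all genes. Nrarp, a Notch target whose protein dampens the signal, rose at both stages, from 29.2 ± 3.43 to 49.4 ± 8.45 CPM at E10.5 (log2 change 0.76 ± 0.18, adjusted p = 0.00841) and from 29.8 ± 2.12 to 50.1 ± 7.09 CPM at E11.5 (0.75 ± 0.18, adjusted p = 0.00726; both edgeR). No mutant library overlapped the controls, which stood at 26.4 to 33.0 CPM at E10.5 and 27.5 to 31.6 CPM at E11.5. Fbxw7, part of the ubiquitin ligase that marks the cut Notch fragment for destruction, rose by 0.49 ± 0.11 and 0.44 ± 0.11 on the log2 scale.

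The list genes called lower that are named here have different roles in the pathway, and their number at E10.5 depended on the fit, as given above. Rbpj, the DNA-binding partner of cut Notch, went from 92.5 ± 5.87 to 69.6 ± 4.25 CPM at E10.5 (log2 change -0.41 ± 0.13, adjusted p = 0.0373 in edgeR), and Maml1, a Mastermind coactivator, from 106 ± 4.13 to 79.6 ± 4.86 CPM (-0.41 ± 0.13, adjusted p = 0.0391). Both of these calls held in only 1 of 7 fits that left out 1 library, with adjusted p-values of up to 0.146 and 0.162 in edgeR. Numbl, a relative of the Notch inhibitor Numb, fell by 0.53 ± 0.13 at E10.5 and 0.70 ± 0.13 at E11.5, and Dlk1, a Delta-like protein without the receptor-binding domain of the activating ligands, fell by 0.73 ± 0.20 and 1.29 ± 0.21. With 1 library left out, the E10.5 call held in 5 of 7 fits for Numbl and 4 of 7 for Dlk1, with adjusted p-values of up to 0.0592 and 0.125 in edgeR. The E11.5 calls of both held in 16 of 16 alternatives. Of the genes called, 4 were called at both stages: Nrarp, Fbxw7, Numbl and Dlk1. The share of all genes called at both stages was not computed, so this count is a description only. At E11.5 the lowest adjusted p-values belonged to Dll3, a divergent Delta ligand, which went from 2.93 ± 0.361 to 0.292 ± 0.159 CPM (log2 change -3.29 ± 0.46), and to Dtx1, a Deltex ubiquitin ligase, which went from 11.7 ± 3.15 to 3.01 ± 0.485 CPM (-1.95 ± 0.30). Furin, the protease that processes Notch precursors, fell by 0.53 ± 0.09. The summed level of the 45 genes was 2909 to 2964 CPM in E10.5 controls and 2564 to 2650 CPM in E10.5 mutants.

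Control stages were compared to see how the genes moved during normal growth of the bud. From E9.5 to E10.5, 5 rose and 1 fell, against 27.5% of all genes called in either direction (15.0% higher and 12.5% lower). Jag1 rose by the most, from 13.3 ± 2.65 to 44.7 ± 3.02 CPM (log2 change 1.75 ± 0.22, adjusted p = 2.26e-05, edgeR), followed by Notch1 (1.39 ± 0.21), Hey1 (1.17 ± 0.11), Notch3 (1.15 ± 0.21) and Notch2 (0.82 ± 0.24, adjusted p = 0.0191, edgeR). Hey2 fell, from 3.82 ± 1.62 to 1.73 ± 0.253 CPM (-1.15 ± 0.35, adjusted p = 0.0208, edgeR). The Hey2 call was lost without control E9.5 replicate 3 or control E10.5 replicate 1 or 2, with adjusted p-values of up to 0.0945 in edgeR. The Notch2 call was lost without control E10.5 replicate 1 or 2 (up to 0.0617), and with no filter on low counts (0.0675). Control E9.5 replicate 1 was the lowest of its group for all 3 receptors. Without it the log2 changes were 1.62 for Jag1, 1.12 for Notch1, 1.22 for Hey1, 0.86 for Notch3, 0.50 for Notch2 and -1.44 for Hey2, all still past the threshold in edgeR. Nrarp, outside the 10 genes, was at 6.08 to 10.98 CPM in E9.5 controls. From E10.5 to E11.5, edgeR called 0 of the 10 genes, against 9.49% of all genes. Unadjusted, 3 had a p under 0.05, namely Dll1, Jag1 and Hey2, against 4634 of 20118 genes. DESeq2 called 2 and limma-voom 1, against 2702 and 2143 of 20118 genes. Dll1 was at 5.18 ± 0.600 CPM in E10.5 controls and 9.83 ± 1.22 CPM in E11.5 controls (0.93 ± 0.30, adjusted p = 0.0594, edgeR), and Jag1 at 44.7 and 68.7 CPM (0.62 ± 0.21, adjusted p = 0.0730, edgeR).

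The order of the 6 groups differed between genes. For Hey1, mutant E11.5 stood above mutant E10.5, which stood above both later control groups, and all of these above the overlapping E9.5 groups. For Jag2, mutant E10.5 and mutant E11.5 overlapped each other and stood above the other 4 groups, which formed a run of neighbours with overlapping ranges. For Notch2, control E11.5 and control E10.5 overlapped and led, and mutant E10.5 was the lowest, overlapping control E9.5 through the latter's replicate 1. For Dll4, the E9.5 groups led and each neighbour in the order overlapped down to control E11.5, with mutant E11.5 below.

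Whether the mutant effect itself changed between stages was tested by interaction contrasts. None of the 10 genes passed in edgeR from E9.5 to E10.5, from E9.5 to E11.5 or from E10.5 to E11.5, against 2.22%, 6.42% and 0.0746% of all genes. In the same order, 3, 4 and 0 had an unadjusted p under 0.05, against 4422, 5140 and 1705 of 20118 genes. DESeq2 called 2, 2 and 0, against 1417, 2588 and 195 of 20118 genes. The smallest adjusted p-values were those of Hey1 (0.0645, difference in log2 change 0.48 ± 0.15) and Dll4 (0.0670, -0.92 ± 0.29) from E9.5 to E11.5. From E9.5 to E10.5, Notch2 had a difference of -1.15 ± 0.34 (adjusted p = 0.0853) and Jag2 of 0.87 ± 0.27 (0.0925). DESeq2 called Notch2 (adjusted p = 0.0215) and Jag2 (0.0270) from E9.5 to E10.5, and Hey1 (0.0177) and Dll4 (0.0258) from E9.5 to E11.5, against 7.04% and 12.9% of all genes. Without control E9.5 replicate 1, edgeR called Notch2 (-0.85, adjusted p = 0.0292) and Jag2 (1.06, 0.0159) from E9.5 to E10.5, and Dll4 (-1.10, 0.0227) and Jag2 (0.83, 0.0330) from E9.5 to E11.5, against 3.44% and 7.71% of all genes. In the fit of all libraries by edgeR, an effect called at 1 stage and not at another is thus not shown to differ between the stages, and which genes passed depended on the tool and on the libraries held. Leaving out control E9.5 replicate 2 instead, edgeR called Notch2 and Notch3 from E9.5 to E10.5, with 2510 of 20810 genes called. From E9.5 to E11.5 it called Notch1, Notch2 and Hey1, with 3339 of 20810 genes called. In the fit of all libraries these all-gene counts were 446 and 1291 of 20118.

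The genes most like each of the 10 over the 18 libraries were listed by Pearson correlation of log2 CPM among 11715 genes, as a description that groups, stages and shared libraries can set. For Jag2 they were Ripk4 (0.980), Cnksr1 (0.959) and Hspb8 (0.958). For Hey1 the nearest were Nrarp (0.976) and Evx1 (0.976), and for Notch2 they were Bmpr1a (0.989), Ttc3 (0.983) and Gpr161 (0.982). For Dll1 the nearest was Pax7 (0.958), a transcription factor of muscle precursors, ahead of Klhl13 (0.951) and Frmpd1 (0.948). Notch1 was nearest to Prdm11 (0.974), Nr3c1 (0.967) and Pcdh17 (0.966), Notch3 to Amot (0.982), Frmd4a (0.979) and Rab11fip4 (0.973), and Jag1 to Abca1 (0.972), Trp53i11 (0.968) and Myo5b (0.965). Dll4 was nearest to Kcp (0.920), Nap1l5 (0.916) and Tle6 (0.900), and Hes1 to Hs3st6 (0.934), Zfyve21 (0.912) and N4bp2l1 (0.910). Hey2, the lowest gene, had the weakest likeness, with Ripor3 (0.821), Chst2 (0.817) and Masp1 (0.811).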

How the data were processed

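RNA was sequenced from 18 mouse forelimb bud libraries. The authors deposited raw counts of read pairs per gene, made per the file headers with featureCounts 1.6.4 over GENCODE M22 exons on mm10 with the reverse strand. The submitters' processing notes also name cutadapt, STAR and limma, with settings not given in the sources used here. A deposited table holds the authors' log2 FPKM values for 14692 genes, which served as an alternative; these had a slope of 0.984 to 0.993 on log2 FPKM recomputed from the counts. Symbols came from GENCODE on the same assembly by gene identifier (99.8% of identifiers).

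For the main analysis edgeR 4.0.16 was run in R 4.3.3 on the raw counts: filterByExpr kept 20118 genes, libraries were scaled by TMM, and 1 robust quasi-likelihood fit of 6 groups held all 18 libraries. The threshold was an adjusted p of 0.05 (Benjamini-Hochberg over all genes tested). Levels are CPM on the TMM-scaled library size. The common biological coefficient of variation was 0.231, larger than the counting error of genes with over 100 counts. No replicate pair agreed within sampling noise (smallest chi-square per gene 17.2). Scripts were tested on simulated data. Alternatives used DESeq2 1.42.0, limma 3.58.1 and other normalization, filters and libraries. Of the list of other Notch pathway genes, up to 4 called genes in each direction and stage were named by smallest adjusted p. Up to 3 genes most like each of the 10 were named by correlation, and 1 of them is not reported here. The genes, the lists and their tests were chosen with earlier results of these data known.

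Same-numbered control and mutant libraries had correlated deviations at E9.5 (0.333, 0.232 and 0.119). Control replicate 3 with mutant replicate 2 of that stage had 0.247, and the other differently numbered pairs had 0.00855 or less. The labels state no pairing, so whether the numbers pair the samples is not known. At E10.5 and E11.5 only 1 of 3 same-numbered pairs each exceeded 0.1. Differently numbered pairs of E11.5 ran from -0.405 to 0.479. The highest of all pairs was control replicate 1 with mutant replicate 3 of E11.5, whose library names start with the same number. Other control and mutant pairs sharing such a number had -0.223 at E9.5 and -0.163 to 0.227 at E10.5. What this number stands for is not stated. The main fit held no replicate block, and fits with a block served as alternatives.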

Additional observations from a re-analysis of the deposited data

How the results depend on the processing

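With 3 libraries a group, calls near the threshold changed between fits, and the cause of each change below was not tested. The count of the 10 genes called between mutants and controls at E10.5 was 3. It was 1 with no filter on low counts (6.51% of all genes called) and 7 with only the stage compared (34.6%). Without both libraries that stood apart, control E9.5 replicate 1 and mutant E10.5 replicate 3, it was 5 (18.7%). It was 1 with the 4 E10.5 libraries whose names start with 41 alone (4.24%) and 5 with the length trend removed (16.0%). With 1 library left out it was 1 to 6, with 1473 to 5333 of all genes called. At E11.5 the count was 3. It was 5 with only the stage compared (23.8%), without both libraries (28.7%) or with the length trend removed (20.3%). With 1 library left out it was 2 to 4, with 2188 to 5976 of all genes called. At E9.5 the count was 0. It was 1, Notch1, with DESeq2 (131 of all genes called) or the length trend removed (44). With 1 library left out it was 0 to 1 (Notch1 without control replicate 2, adjusted p = 0.0348, edgeR, with 63 of all genes called). For control E11.5 against E10.5 the count was 0. It was 2 with DESeq2 (2702 of all genes called) or without both libraries (3723). It was 1 with limma-voom (2143), with only these stages (3697) or with the length trend removed (2447). It was 0 to 1 with 1 library left out (694 to 3762). For the change of effect from E9.5 to E10.5 the count was 0. It was 2 with DESeq2 (1417 of all genes called) or the length trend removed (536), and 1 without both libraries (369). With 1 library left out it was 0 to 2 (124 to 2510). From E9.5 to E11.5 it was 0; it was 2 with DESeq2, without both libraries or with the length trend removed, 1 with the authors' log2 FPKM, and 0 to 3 with 1 library left out. For control E10.5 against E9.5 it was 6, against 5523 of 20118 genes. Over all alternatives it was 4 to 7, with 3644 to 6939 of all genes called. It was 4 without control E10.5 replicate 1 (3901) or 2 (3644).

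Directions turned only in changes that were not called. Without both libraries that stood apart, the E9.5 log2 changes were -0.080 for Notch2, -0.052 for Notch3, -0.12 for Dll1, -0.16 for Hey2 and 0.19 for Hes1. With 1 library left out they ran from -0.080 to 0.50 for Notch2, from -0.052 to 0.45 for Notch3, from -0.12 to 0.57 for Dll1, from -0.16 to 0.43 for Hey2, from -0.29 to 0.19 for Hes1 and from -0.019 to 0.19 for Hey1, and the E11.5 change of Jag1 ran from -0.24 to 0.36. The Hes1 change at E9.5 was 0.015 with the length trend removed. Control E9.5 replicate 1 was the library whose absence turned Notch2, Notch3, Dll1 and Hey2, mutant E9.5 replicate 1 turned Hey1, mutant E11.5 replicate 2 turned Jag1, and either control replicate 1 or mutant replicate 2 of E9.5 turned Hes1. Fits of all libraries with a replicate block gave 0, 3 and 3 called genes from E9.5 to E11.5, the same counts as the main fit. Over all genes 41, 2575 and 3271 of 20118 were called in them. With the block and E9.5 fitted alone, 0 of 17727 genes were called. The 0 of the 10 genes in that fit therefore cannot show what the block changes. The length trend, the fits of later stages without control E9.5 replicate 1 and the block at E9.5 alone were chosen after the data were seen.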
